A study of Saccharomyces cerevisiae with 8 samples.

Results

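Nuclear genes of the respiratory chain and of ATP synthase were followed in the NaCl response of *Saccharomyces cerevisiae*. The genes came from a list of systematic names. It holds 9 subunit genes of cytochrome c oxidase, 9 of the cytochrome bc1 complex, both cytochrome c genes, 4 of succinate dehydrogenase, 12 of ATP synthase and 3 genes of NADH dehydrogenases. All 39 were found among the 6868 features of the arrays, and each of them had a value on all 8 arrays. A total of 3 strains of the W303 background were compared. The *cdc14-3 snf1* strain (3 arrays) carried *cdc14-3*, a heat-sensitive form of the gene for the mitotic exit phosphatase Cdc14, and lacked *SNF1*, which encodes a kinase of the carbon response. The *cdc14-3* strain (2 arrays, numbered 2 and 3) carried the *CDC14* allele alone, and the *snf1* strain (3 arrays) lacked *SNF1* alone. All cells were cultured in rich YPD medium at 25 °C, moved to 35 °C, where the *cdc14-3* product does not work, and there treated with 0.7 M NaCl for 30 min. Salt was added after 90 min at 35 °C on replicate 1 of *cdc14-3 snf1* and of *snf1*, and after 2 h on the other 6 arrays, so that *cdc14-3* was measured at 2 h alone. Cells with *cdc14-3* arrest in M phase at this temperature, so the allele and the arrest cannot be told apart in a comparison with *snf1*. The *cdc14-3* and *snf1* strains also differ in both genes. A difference between them can therefore not be assigned to the *CDC14* allele or to the loss of *SNF1*. Wild-type arrays were not analysed here, and nothing in the labels says whether replicates came from separate cultures, so the p-values measure the spread between these arrays.

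The respiratory chain of yeast passes electrons from NADH and succinate through ubiquinone, the cytochrome bc1 complex and cytochrome c to cytochrome c oxidase, and ATP synthase uses the proton gradient that this builds. *S. cerevisiae* has no proton-pumping complex I; its NADH dehydrogenases are small enzymes that face the matrix (Ndi1) or the intermembrane space (Nde1 and Nde2). Most of these nuclear genes are repressed by glucose and are switched on by the Hap2/3/4/5 complex, in which Hap4 is the regulated activator. Several subunits come as a pair of isoforms, of which *COX5B* and *CYC7* are the forms known for expression at low oxygen.

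The values are log2 ratios of NaCl-treated over unstressed cells of the strain concerned, so that 1 is a 2-fold rise. A ratio of this kind gives the response of a transcript, not its level, and levels of different genes were not compared. Neither log base nor direction is stated with the values. A base of 2 is likely, judging by the plots and methods of the study, and the direction was read from *GPD1*, a glycerol synthesis gene induced by salt, which lay between 2.81 and 4.11 on the 8 arrays. The 131 ribosomal protein genes, which stress represses, averaged between -1.58 and -0.38. Between 6165 and 6776 features had a value on an array, and the SD over features ranged from 0.72 to 1.10. Treated cells carried the same dye on all arrays, so a dye bias of a gene enters each response and cancels in a difference between strains. The treated cells had also spent longer at 35 °C than the unstressed ones, by the time of the treatment. Tests are limma's moderated test on all 8 arrays with 1 mean per strain, and a gene is called where its p, adjusted over the 6135 features tested, is under 0.05. This filter was on missing values and not on level, and all 39 genes passed it.

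The 39 genes did not respond to NaCl as a block. In *cdc14-3 snf1*, limma called 14 genes: 7 rose, beside 20.6% of all features tested, and 7 fell, beside 25.5% of all features. In *cdc14-3*, 10 were called, of which 8 rose (18.3% of all features) and 2 fell (22.0%). In *snf1*, 13 were called, of which 3 rose (24.3% of all features) and 10 fell (27.0%). The genes that changed in all 3 strains were *CYC7*, *NDE2* and *NDI1*, which rose, and *CYC1* and *ATP1*, which fell. No call was made in any strain for 21 genes. Shares of all features called in all 3 strains or in none were not worked out. Neither count therefore sets the genes apart. With 2 arrays, *cdc14-3* had the least stable count: 2 genes without replicate 2 and 5 without replicate 3. When each array of the strain in question was left out in turn, 7 of the 14 calls stood throughout in *cdc14-3 snf1* (*CYC1*, *CYC7*, *NDE1*, *NDE2*, *NDI1*, *COX5B* and *ATP1*), 2 of 10 in *cdc14-3* (*CYC7* and *NDE2*) and 8 of 13 in *snf1* (*CYC1*, *CYC7*, *NDE2*, *NDI1*, *SDH2*, *QCR2*, *ATP1* and *ATP18*). In *cdc14-3 snf1*, leaving out the 90 min array ended the calls of *SDH2*, *ATP2*, *ATP18* and *ATP20*, leaving out replicate 2 those of *SDH3*, *SDH4*, *QCR8* and *ATP2*, and leaving out replicate 3 those of *SDH2*, *SDH4*, *ATP2* and *ATP20*. In *snf1*, leaving out the 90 min array ended the calls of *COX4*, *CYT1*, *ATP2*, *ATP20* and *NDE1*, while *ATP2* also lost its call without replicate 2 and *CYT1* without replicate 3.

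The arrays gave the same picture gene by gene. *CYC7*, *SDH4*, *NDE2* and *NDI1* were above 0 on all 8 arrays. *COX4*, *COR1*, *QCR2*, *CYC1*, *ATP1*, *ATP2*, *ATP18*, *ATP20* and *NDE1* were below 0 on all 8, and the other 26 genes had values on both sides. Matching shares over all features were not worked out, so these signs do not set the genes apart. The mean over the 39 genes was -0.29, 0.18 and 0.02 on *cdc14-3 snf1* replicates 1 to 3, 0.34 and 0.14 on *cdc14-3* replicates 2 and 3, and -0.48, -0.08 and 0.04 on *snf1* replicates 1 to 3. The strain means were -0.03 in *cdc14-3 snf1* (SD 0.24), 0.24 in *cdc14-3* (SD 0.14) and -0.17 in *snf1* (SD 0.27). The lowest array of *cdc14-3 snf1* and the lowest of *snf1* were the pair held at 35 °C for 90 min. In *cdc14-3 snf1*, 32 of the 39 genes were higher on both 2 h arrays than on the 90 min array, and in *snf1* 31 were. In each strain, 4 genes were lower on both. The share over all features was not worked out and each of these strains had a single 90 min array, so the counts do not set the genes apart.

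**Figure D1:**
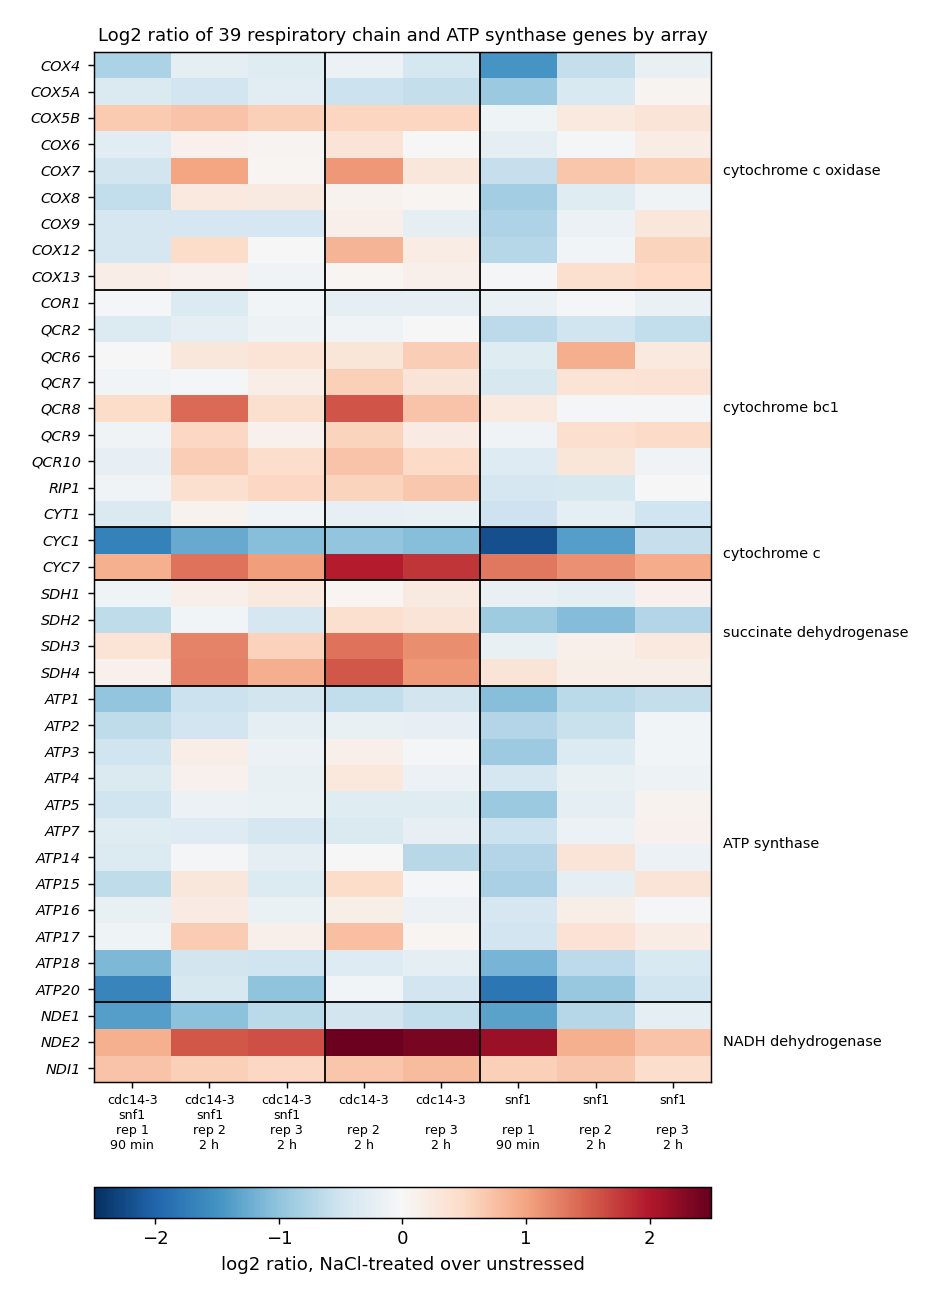
Log2 ratio (colour, NaCl-treated over unstressed) of the 39 genes (rows, grouped by complex) on each of the 8 arrays (columns, grouped by strain, with replicate number and time at 35 °C before NaCl). *CYC7* and *NDE2* are red and *CYC1* and *NDE1* blue in every column, and the 90 min columns hold the deepest blue for *CYC1* and *ATP20*.

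In each of 3 isoform pairs, 1 gene lay above its partner on every array. Of the cytochrome c genes, *CYC7* (YEL039C, iso-2-cytochrome c) had log2 ratios of 0.89, 1.35 and 1.05 on the *cdc14-3 snf1* arrays, 1.96 and 1.78 on the *cdc14-3* arrays and 1.32, 1.14 and 0.93 on the *snf1* arrays. *CYC1* (YJR048W), which encodes iso-1-cytochrome c, the main form in air, had -1.69, -1.26 and -1.07 in *cdc14-3 snf1*, -0.98 and -1.06 in *cdc14-3* and -2.21, -1.37 and -0.57 in *snf1*. No array of any strain put *CYC1* above 0, and the *cdc14-3* arrays held the top values of *CYC7*, clear of the other strains. For *CYC7*, the *cdc14-3 snf1* mean was 1.10 (SD 0.23, n = 3), the *cdc14-3* mean 1.87 (SD 0.13, n = 2) and the *snf1* mean 1.13 (SD 0.20, n = 3). *CYC1* averaged -1.34 in *cdc14-3 snf1* (SD 0.32), -1.02 in *cdc14-3* (SD 0.06) and -1.38 in *snf1* (SD 0.82). Both genes were called in all 3 responses, and *CYC1* had the lowest mean response of the 39 genes in each strain.

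The external NADH dehydrogenases differed likewise. *NDE2* (YDL085W) had 0.88, 1.55 and 1.62 in *cdc14-3 snf1*, 2.44 and 2.38 in *cdc14-3* and 2.16, 0.90 and 0.71 in *snf1*, and was the gene with the highest mean response in each strain. *NDE1* (YMR145C) had -1.38, -1.03 and -0.67 in *cdc14-3 snf1*, -0.45 and -0.62 in *cdc14-3* and -1.33, -0.71 and -0.22 in *snf1*. The *cdc14-3* arrays again held the top 2 values of *NDE2*, although *snf1* replicate 1, a 90 min array, came close to them. *NDE1* fell past the threshold in *cdc14-3 snf1* (adjusted p in limma 0.0034) and *snf1* (0.0136). Its mean in *cdc14-3* was -0.53 ± 0.11 (SD, n = 2) and missed the threshold (0.121). In 7 of 16 alternatives, *NDE1* gained the call in *cdc14-3*. The matrix-facing *NDI1* (YML120C) varied little, between 0.43 and 0.78 over the 8 arrays, and rose in all 3 strains.

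For subunit 5 of cytochrome c oxidase, *COX5B* (YIL111W) had 0.66, 0.72 and 0.59 in *cdc14-3 snf1*, 0.54 and 0.54 in *cdc14-3* and -0.10, 0.24 and 0.33 in *snf1*. All 5 arrays with *cdc14-3* were above the 3 *snf1* arrays. *COX5A* (YNL052W), the form used in air, had -0.36, -0.48 and -0.27 in *cdc14-3 snf1*, -0.54 and -0.59 in *cdc14-3* and -0.94, -0.38 and 0.06 in *snf1*, with no strain clear of *snf1*. *COX5B* was called in *cdc14-3 snf1* (0.66, adjusted p in limma 0.00246) and *cdc14-3* (0.54, 0.0182) and not in *snf1* (0.15, 0.312). *COX5A* was called in no strain, but narrowly missed the threshold in *cdc14-3* (-0.56, adjusted p in limma 0.0585). Of 16 alternatives, *COX5A* gained the call in 8 for *cdc14-3*, in 4 for *cdc14-3 snf1* and in 1 for *snf1*. The gap between the isoforms was above 0 on 8 of 8 arrays for each pair. It ranged over the arrays from 1.499 to 3.53 for *CYC7* minus *CYC1*, from 0.93 to 3.49 for *NDE2* minus *NDE1* and from 0.27 to 1.20 for *COX5B* minus *COX5A*. The widest gap of the first and second pair was on *snf1* replicate 1 and the narrowest of all 3 pairs on *snf1* replicate 3.

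**Figure D2:**
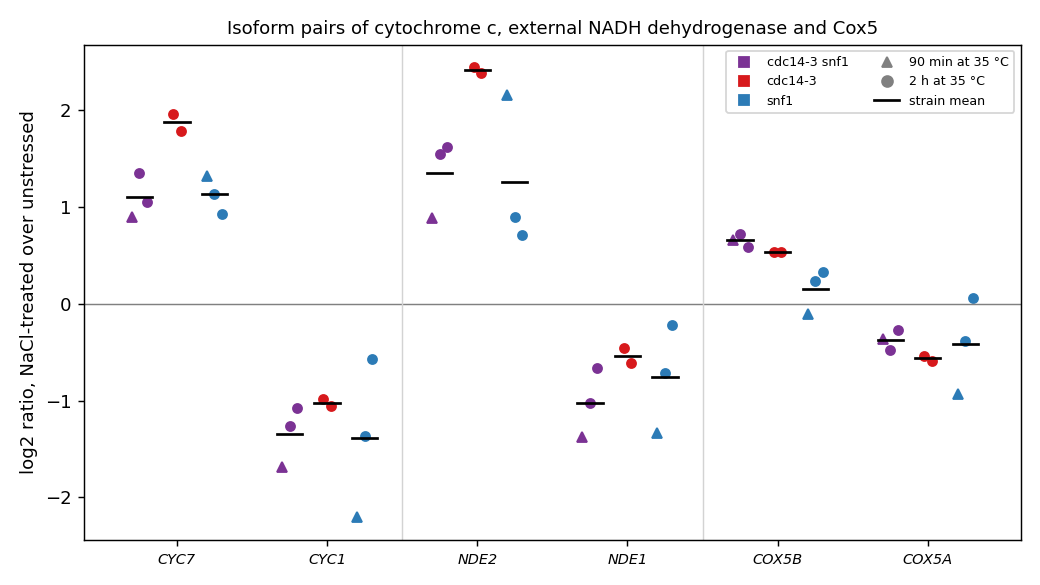
Log2 ratio (vertical axis, NaCl-treated over unstressed) of the 3 isoform pairs, with 1 point per array, colour for the strain, triangles for 90 min and circles for 2 h at 35 °C before NaCl, and bars for strain means. *CYC7*, *NDE2* and *COX5B* lie above their partners in every strain, and the *cdc14-3* mean of *NDE2* is 2.41.

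Among the complexes, succinate dehydrogenase, which the respiratory chain shares with the tricarboxylic acid cycle, had the widest gap between *cdc14-3* and *snf1* (0.96 in the mean of its 4 genes). In *cdc14-3* against *snf1*, limma called 5 of the 39 genes, all higher in *cdc14-3*: *SDH2*, *SDH3*, *SDH4*, *RIP1* and *CYC7*. These are 12.8% of the genes, beside 18.9% of all features called in either direction and 8.74% called higher in *cdc14-3*, so the number of calls does not set the genes apart. The differences of 34 of the 39 genes were above 0, with a median of 0.36 over the 39 genes against -0.02 over all features tested. Among 2 h arrays, 27 of the 39 were above 0 with a median of 0.17, which is also the median without *snf1* replicate 1, the 90 min array. In 17 of the 39 genes (43.6%), 16 of them higher in *cdc14-3*, the *cdc14-3* and *snf1* arrays did not overlap, against 52.2% of all features. *COR1* was the exception, with both *cdc14-3* arrays below the *snf1* arrays. Of the 6102 features compared, 1544 were higher in *cdc14-3* without overlap and 1642 were lower.

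*SDH2* (YLL041C), the iron-sulfur subunit, had -0.63, -0.08 and -0.42 in *cdc14-3 snf1*, 0.41 and 0.32 in *cdc14-3* and -0.88, -1.09 and -0.74 in *snf1*. The 3 strains formed separate bands, with *cdc14-3* above 0, *snf1* lowest and *cdc14-3 snf1* between them. Between *cdc14-3* and *snf1* the gap was 1.27 (SE 0.22, limma adjusted p 0.00759). *SDH2* fell past the threshold in *snf1* (adjusted p in limma 0.000823), while its mean of 0.37 in *cdc14-3* was not called (0.112). Its mean of -0.38 in *cdc14-3 snf1* was just inside the threshold (0.0482), and that call was lost in 11 of 16 alternatives, with adjusted p in limma between 0.00884 and 0.246.

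The membrane anchor genes followed a similar order. *SDH3* (YKL141W) had 0.34, 1.24 and 0.58 in *cdc14-3 snf1*, 1.35 and 1.16 in *cdc14-3* and -0.19, 0.12 and 0.24 in *snf1*. *SDH4* (YDR178W) had 0.11, 1.26 and 0.91 in *cdc14-3 snf1*, 1.56 and 1.08 in *cdc14-3* and 0.33, 0.15 and 0.14 in *snf1*. For both, the *cdc14-3 snf1* arrays spread from near the *snf1* arrays at 90 min up to the range of *cdc14-3* in replicate 2. Set against *snf1*, *cdc14-3* was higher by 1.20 (SE 0.28, limma adjusted p 0.0199) for *SDH3* and 1.11 (SE 0.32, 0.0408) for *SDH4*. Both rose in *cdc14-3 snf1* (0.72 and 0.76) and in *cdc14-3* (1.25 and 1.32), and neither was called in *snf1* (0.06 and 0.21).

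*SDH1* (YKL148C), the flavoprotein subunit that binds succinate, stood apart from the other 3 subunit genes. It had -0.11, 0.13 and 0.24 in *cdc14-3 snf1*, 0.05 and 0.23 in *cdc14-3* and -0.19, -0.25 and 0.10 in *snf1*, which overlapped throughout. The gap between *cdc14-3* and *snf1* was 0.25 (SE 0.20, limma adjusted p 0.395), and it was called in no response. Over the 4 genes, *cdc14-3 snf1* averaged 0.30 (SD 0.36, n = 3), *cdc14-3* 0.77 (SD 0.10, n = 2) and *snf1* -0.19 (SD 0.11, n = 3).

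*RIP1* (YEL024W), the Rieske iron-sulfur protein of the cytochrome bc1 complex, had -0.10, 0.40 and 0.52 in *cdc14-3 snf1*, 0.56 and 0.67 in *cdc14-3* and -0.41, -0.40 and -0.02 in *snf1*. The *cdc14-3* arrays were above all arrays of the other strains, and the 2 h arrays of *cdc14-3 snf1* were next to them. *RIP1* was higher in *cdc14-3* than in *snf1* by 0.89 (SE 0.24, limma adjusted p 0.0312), and *CYC7* by 0.74 (SE 0.21, limma adjusted p 0.0409). Just outside the threshold in this comparison were *QCR8* (1.09, adjusted p 0.0586), *QCR2* (0.54, 0.0605) and *NDE2* (1.15, 0.0775).

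These 5 calls depended on which arrays were fitted. Without *cdc14-3* replicate 2, none of the 39 genes was called by limma, and none of the 6552 features tested in that fit, and without *cdc14-3* replicate 3 only *SDH2* was. With a *cdc14-3* array left out, the lone array is assumed to vary as the other strains do. Without *snf1* replicate 2, 1 gene was called, and without *snf1* replicate 3 or without *cdc14-3 snf1* replicate 3, 3 were. Over the 16 alternatives tried, the call was lost in 1 for *SDH2*, in 3 each for *SDH3* and *RIP1*, in 7 for *CYC7* and in 8 for *SDH4*. Among 2 h arrays, 8 genes were called (20.5%, beside 37.4% of all features in either direction and 17.4% higher), all higher in *cdc14-3*: the 5 above with *QCR2* (0.51), *QCR8* (1.19) and *NDE2* (1.60). The *SDH2*, *SDH3* and *SDH4* differences at 2 h were 1.28, 1.07 and 1.17.

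**Figure D3:**
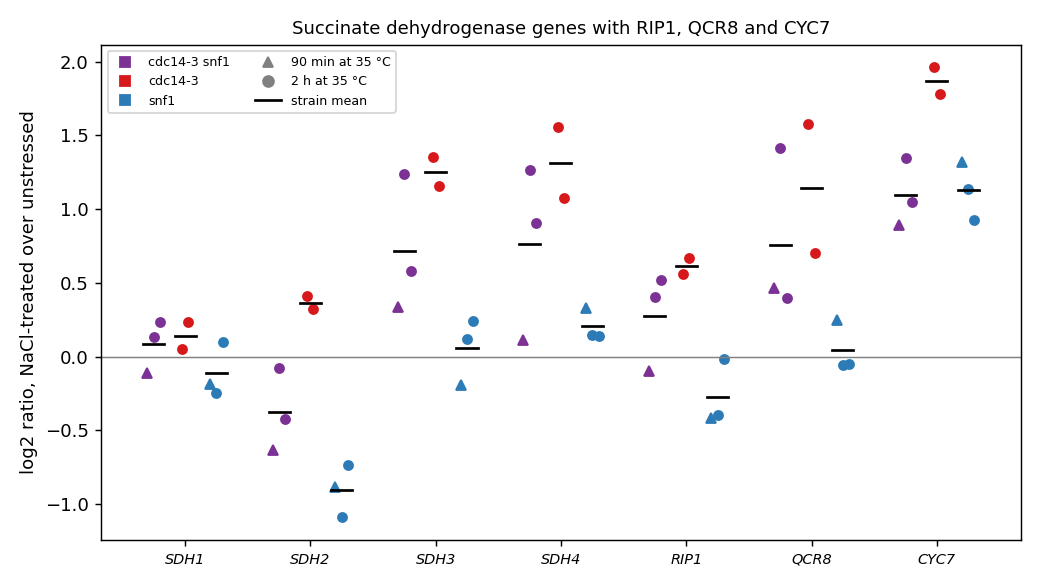
Log2 ratio (vertical axis, NaCl-treated over unstressed) of the 4 succinate dehydrogenase genes with *RIP1*, *QCR8* and *CYC7*, with 1 point per array, colour for the strain, triangles for 90 min and circles for 2 h at 35 °C, and bars for strain means. For *SDH2* the strains form 3 separate bands around -0.38 in *cdc14-3 snf1*, 0.37 in *cdc14-3* and -0.90 in *snf1*, while for *SDH1* they overlap.

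The comparison of *cdc14-3 snf1* with *cdc14-3* asks what the loss of *SNF1* changes in cells with the *CDC14* allele. By limma 0 of the 39 genes were called (0.0489% of all features, or 3 of 6135), and 3 had an unadjusted p under 0.05. These were *CYC7* (-0.77, adjusted p 0.239), *SDH2* (-0.74, 0.259) and *NDE2* (-1.06, 0.374), whose arrays of *cdc14-3 snf1* were all below those of *cdc14-3*. With array weights limma called *CYC7* and *SDH2*, both lower in *cdc14-3 snf1*. That is 5.13% of the genes, near the 4.43% of all features called with those weights, of which 3.1% were lower. The weights were 0.48, 0.94 and 3.20 on *cdc14-3 snf1* replicates 1 to 3, so replicate 3 counted most, and 1.53 on each *cdc14-3* array. Differences were below 0 for 33 of the 39 genes, with a median of -0.21 against -0.01 over all features. This median was -0.12 without *cdc14-3 snf1* replicate 1 and -0.36 without its replicate 2. The arrays did not overlap for 13 genes (33.3%, beside 35.8% of all features), 11 lower and 2 higher in *cdc14-3 snf1*. The 2 higher ones were *COX5A* and *COX5B*. Of the 6118 features compared, 1039 were lower in *cdc14-3 snf1* without overlap and 1149 were higher. The difference in the mean over the 39 genes was -0.27, and -0.14 among 2 h arrays.

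In *cdc14-3 snf1* against *snf1*, which sets cells with and without the *CDC14* allele side by side when both lack *SNF1*, limma called 0 of the 39 genes (0.0% of all features) and 6 had an unadjusted p under 0.05. The 3 lowest p belonged to *COX5B* (0.50, adjusted p in limma 0.192), *SDH2* (0.52, 0.219) and *SDH3* (0.66, 0.222), all higher on each *cdc14-3 snf1* array than on any *snf1* array. The arrays did not overlap for these and for *QCR2* and *QCR8*, or 5 genes in all (12.8%, beside 19.0% of all features), all higher in *cdc14-3 snf1*. Of the 6096 features compared, 553 were higher in *cdc14-3 snf1* without overlap and 604 were lower. When the 90 min arrays were left out, limma called 3 genes (7.69%, beside 22.7% of all features in either direction and 9.84% higher), all higher in *cdc14-3 snf1*: *SDH4* (0.94, adjusted p 0.0276), *RIP1* (0.67, 0.0414) and *NDE2* (0.78, 0.0189). The mean over the 39 genes was higher in *cdc14-3 snf1* by 0.11 between the 2 h arrays and by 0.19 between the 90 min arrays. The median difference over the 39 genes was 0.07, against -0.05 over all features, but its sign depended on the arrays. It was -0.05 without *snf1* replicate 1, 0.15 without *snf1* replicate 2 and 0.25 without *snf1* replicate 3. Leaving out replicate 1 of *cdc14-3 snf1* gave 0.25, and leaving out its replicate 2 gave 0.001.

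Of the other cytochrome bc1 genes, limma called *QCR8*, *QCR2* and *CYT1* in at least 1 response. The core proteins *COR1* (YBL045C) and *QCR2* (YPR191W) were below 0 on all arrays, with means of -0.15 and -0.23 in *cdc14-3 snf1*, -0.24 and -0.05 in *cdc14-3* and -0.12 and -0.59 in *snf1*. *CYT1* (YOR065W), cytochrome c1, ranged from -0.52 to 0.09 and fell past the threshold in *snf1* (-0.41), as *QCR2* did. Of the small subunits, *QCR8* (YJL166W) had 0.46, 1.41 and 0.40 in *cdc14-3 snf1*, 1.58 and 0.70 in *cdc14-3* and 0.25, -0.05 and -0.05 in *snf1*. It rose in *cdc14-3 snf1* (adjusted p in limma 0.0204) and *cdc14-3* (0.00927), and its replicate 2 was far above the rest in both strains. *QCR6* (YFR033C), *QCR7* (YDR529C), *QCR9* (YGR183C) and *QCR10* (YHR001W-A) had means between 0.38 and 0.60 in *cdc14-3*, and none of them was called in any strain.

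Of the other cytochrome c oxidase genes, only *COX4* (YGL187C) was called. It fell in *snf1* (-0.75 ± 0.65, SD, n = 3, adjusted p in limma 0.0196), where its arrays spread from -1.47 at 90 min to -0.19. *COX7* (YMR256C) and *COX12* (YLR038C) had the widest ranges over arrays among those not called. *COX7* had -0.47, 0.98 and 0.04 in *cdc14-3 snf1*, 1.08 and 0.29 in *cdc14-3* and -0.58, 0.70 and 0.60 in *snf1*. The 90 min array was the lowest in both strains that have one, and replicate 2 was the highest in all 3 strains. *COX6* (YHR051W), *COX8* (YLR395C), *COX9* (YDL067C) and *COX13* (YGL191W) stayed between -0.88 and 0.50 on all arrays. Over the 9 genes, *cdc14-3 snf1* averaged -0.04 (SD 0.22, n = 3), *cdc14-3* 0.13 (SD 0.19, n = 2) and *snf1* -0.14 (SD 0.45, n = 3), and *cdc14-3* and *snf1* differed by 0.01 among 2 h arrays.

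ATP synthase was the complex with the lowest mean in each strain. The *cdc14-3 snf1* mean was -0.33 (SD 0.26, n = 3), the *cdc14-3* mean -0.13 (SD 0.17, n = 2) and the *snf1* mean -0.40 (SD 0.38, n = 3). The catalytic head was led downwards by *ATP1* (YBL099W), the alpha subunit, with -0.98, -0.54 and -0.46 in *cdc14-3 snf1*, -0.62 and -0.47 in *cdc14-3* and -1.06, -0.67 and -0.60 in *snf1*. It was the only ATP synthase gene called in all 3 strains. The beta subunit *ATP2* (YJR121W) fell in *cdc14-3 snf1* and *snf1* (-0.45 in each) and had a mean of -0.20 in *cdc14-3*. In each of the strains where it fell, its call was lost in 7 of 16 alternatives, the 2 h arrays alone and heat time as a covariate among them.

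Of the membrane part, *ATP20* (YPR020W), a subunit of the dimer interface, had -1.64, -0.41 and -0.997 in *cdc14-3 snf1*, -0.07 and -0.49 in *cdc14-3* and -1.82, -0.94 and -0.51 in *snf1*. *ATP18* (YML081C-A) had means of -0.69, -0.29 and -0.73 in *cdc14-3 snf1*, *cdc14-3* and *snf1*. Both fell in *cdc14-3 snf1* and *snf1* and neither was called in *cdc14-3*. No strain difference of an ATP synthase gene was called. The remaining 8 genes were called in no response. They are the gamma, delta and epsilon subunits of the central stalk (*ATP3*, *ATP16* and *ATP15*), *ATP4*, *ATP5*, *ATP7* and *ATP14* of the peripheral stalk, and *ATP17* of the membrane part. *ATP16* ranged from -0.41 to 0.20 over the arrays, and the mean of *ATP17* was above 0 in every strain (0.22 in *cdc14-3 snf1*, 0.40 in *cdc14-3* and 0.02 in *snf1*).

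**Figure D4:**
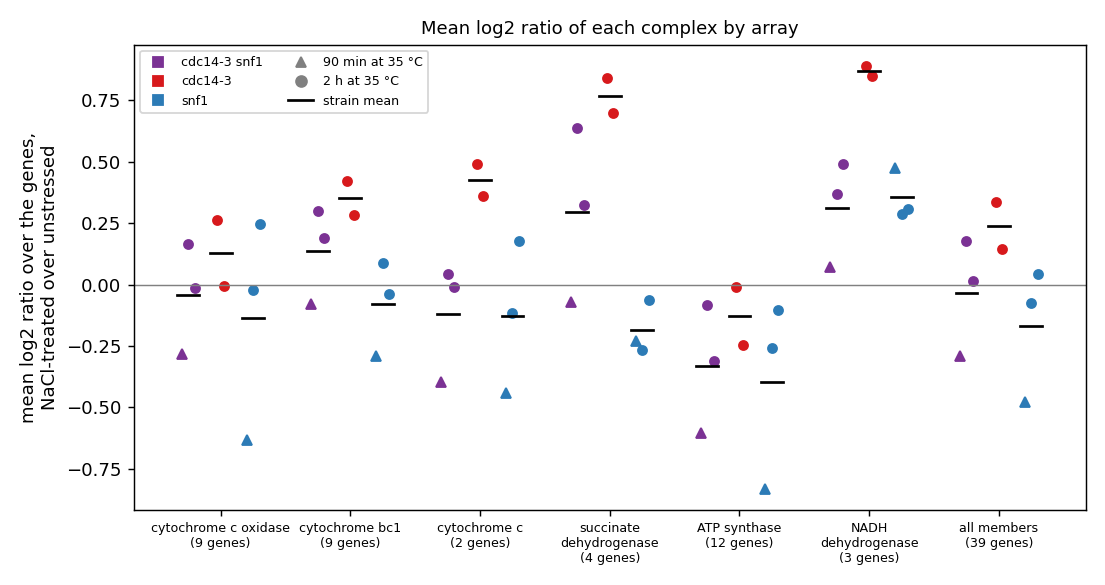
Mean log2 ratio over the genes of each complex (vertical axis, NaCl-treated over unstressed) with 1 point per array, colour for the strain, triangles for 90 min and circles for 2 h at 35 °C, and bars for strain means. Succinate dehydrogenase separates *cdc14-3* (0.84 and 0.70) from *snf1* (-0.27 to -0.06). The 90 min arrays are lowest for cytochrome c oxidase, cytochrome bc1, cytochrome c, ATP synthase and all 39 genes in both strains with one.

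Regulators of these genes were set beside them. *HAP4* (YKL109W) had -1.83, -1.54 and -0.97 in *cdc14-3 snf1*, -1.05 and -0.85 in *cdc14-3* and -1.52, -1.40 and -1.17 in *snf1*. It was below 0 on every array and fell past the threshold in each strain, with no strain difference called. Of the DNA-binding subunits, *HAP2* rose in *cdc14-3 snf1* (0.60) and *snf1* (0.51), and *HAP3* and *HAP5* were called in no strain. *HAP1*, a heme-dependent activator of *CYC1* and *CYC7*, rose in *cdc14-3 snf1* (0.85) and *snf1* (0.78) and had a mean of -0.08 in *cdc14-3*. Without the 90 min array of the strain, *HAP1* averaged 0.64 in *cdc14-3 snf1* and 0.43 in *snf1* and *HAP2* 0.48 and 0.34 in the same strains, and none of these was called. The *HAP1* call was also lost without *cdc14-3 snf1* replicate 3 and, in *snf1*, without replicate 2. *ROX1* (YPR065W), a repressor of genes used at low oxygen, had -0.04, -1.30 and -0.35 in *cdc14-3 snf1*, -1.32 and -1.30 in *cdc14-3* and 0.29, 0.04 and -0.06 in *snf1*. It fell in *cdc14-3*, where it was lower than in *snf1* (difference -1.40, SE 0.33, limma adjusted p 0.0219). *MOT3* (YMR070W), which acts with Rox1, differed the same way (-0.93, SE 0.25, 0.0312). Both calls were lost without *snf1* replicate 2 and without either *cdc14-3* array. These were the 2 of 7 regulator genes called in that comparison (28.6%, beside 18.9% of all features), and none was called in *cdc14-3 snf1* against either strain.

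**Figure D5:**
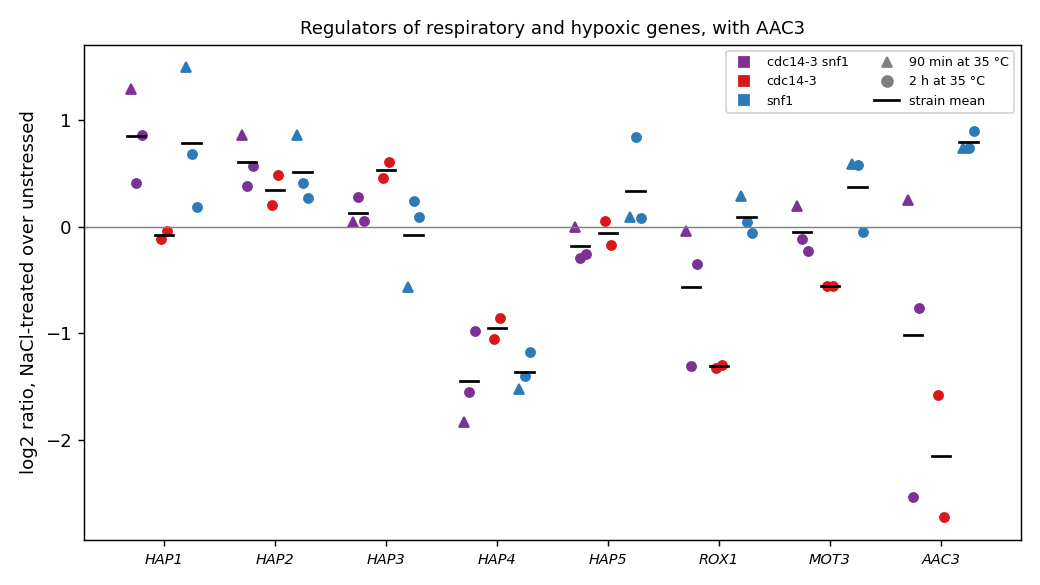
Log2 ratio (vertical axis, NaCl-treated over unstressed) of the Hap subunit genes, *HAP1*, *ROX1*, *MOT3* and *AAC3*, with 1 point per array, colour for the strain, triangles for 90 min and circles for 2 h at 35 °C, and bars for strain means. *HAP4* is below 0 on every array, and *ROX1* and *AAC3* are lower in *cdc14-3* (means of -1.31 and -2.15) than in *snf1* (0.09 and 0.79).

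Genes that serve the same complexes were counted in the same comparison. Each count can be read against the 18.9% of all features called in *cdc14-3* against *snf1*, 8.74% higher and 10.2% lower. Of 32 assembly factor genes, limma called 5 (15.6%), of which 4 were lower. The largest were *COX23* (-1.53), *SCO1*, which delivers copper to cytochrome c oxidase (-1.46), and *PET117* (-1.24). *SDH6*, an assembly factor of succinate dehydrogenase, was the only one higher in *cdc14-3* (1.15, adjusted p 0.0119) and is named because of its value. Its mean response was 0.18 in *cdc14-3 snf1*, 0.90 in *cdc14-3* and -0.25 in *snf1*. The other listed assembly factors of succinate dehydrogenase did not follow it: *SDH5* (0.06) and *SDH7* (-0.30) were not called in this comparison. Among 10 ubiquinone synthesis genes, *COQ8* (-0.73) and *COQ10* (-0.65) were called, both lower in *cdc14-3*. Of 16 alternatives, the call was lost in 10 for *COQ8*, in 8 for *COQ10* and in 10 for *PET117*, in each with the replicate block and with the strains compared alone. Of 3 genes for inhibitors of the ATPase and their stabilising factors, *STF2* was called, with means of 1.49 in *cdc14-3 snf1*, 2.55 in *cdc14-3* and 0.80 in *snf1*.

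Of 4 carrier genes, *AAC3* and *AAC1* were called. *AAC3* (YBR085W), the ADP/ATP carrier known for growth without oxygen, had 0.25, -2.53 and -0.76 in *cdc14-3 snf1*, -1.58 and -2.72 in *cdc14-3* and 0.73, 0.73 and 0.90 in *snf1*. It was called lower in *cdc14-3* than in *snf1* (difference -2.94, SE 0.66, limma adjusted p 0.0187). *AAC1*, a minor carrier of the same family, differed the other way (1.40), and the main carrier *PET9* fell in all 3 strains (-0.59 in *cdc14-3 snf1*, -0.53 in *cdc14-3* and -0.60 in *snf1*). No gene of these lists was called in *cdc14-3 snf1* against *cdc14-3* or against *snf1* on all arrays. Among 2 h arrays, limma called 6 genes of these lists (32, 10, 3 and 4 genes) in *cdc14-3 snf1* against *snf1*. The same fit called 22.7% of all features in either direction, so the number of calls does not set these genes apart. *SCO1* (-1.02), *COX23* (-0.91), *FMC1* (-0.67) and *AAC3* (-2.46) were lower in *cdc14-3 snf1*, and *STF2* (0.97) and *AAC1* (0.97) were higher. Without *cdc14-3* replicate 2, all calls of *cdc14-3* against *snf1* in these lists were lost, and without replicate 3 those of *COX23* and *STF2* were left. The *AAC3* call was also lost without *snf1* replicate 2.

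The subunits encoded in the mitochondrial genome can be set against the nuclear ones. All 7 (*COX1*, *COX2*, *COX3*, *COB*, *ATP6*, *ATP8* and *OLI1*) fell in *cdc14-3 snf1*, 0 were called in *cdc14-3* (0 with an unadjusted p under 0.05) and 1, *ATP6*, fell in *snf1*, beside the 25.5%, 22.0% and 27.0% of all features that fell in these strains. Without *cdc14-3 snf1* replicate 1, the 90 min array, *COX1* and *OLI1* lost the call in that strain, and *OLI1* also did so without replicate 3. *ATP6* lost its call in *snf1* without *snf1* replicate 2 or 3 and without either *cdc14-3* array. Their mean in *cdc14-3 snf1* was -1.66 on the 90 min array and -0.60 and -0.64 on the 2 h arrays, against -0.22 and -0.46 in *cdc14-3* and -0.11, -0.59 and -0.32 in *snf1*. The 2 h arrays of *cdc14-3 snf1* lay next to the lowest *snf1* array. No strain difference of these genes was called.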

How the data were processed

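RNA from hot phenol lysis was copied into amino-allyl cDNA, coupled to Oyster dyes and hybridised to whole-genome tiled 2-colour arrays, with the treated sample in the same dye on all 8 arrays. The authors deposited 1 normalized log2 ratio per feature and array, with medians within 0.001 of 0. How probes were combined, the genome build and the reason for missing values are not given in the sources used here. The values were used as deposited. Of 6868 features, 5984 were found by locus tag in RefSeq's R64 gene table, which supplied symbols only. Those measured on 2 or more arrays of each strain (6135) were fitted in limma 3.58.1 (R 4.3.3) with lmFit and eBayes, 1 mean per strain, and adjusted by Benjamini-Hochberg. The script was tested on simulated data with 200 changed genes. How few arrays there are limits the precision.

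The members and lists were chosen with earlier results of these data known. All 39 members are named. Values on every array are given for members called between strains or, where fewer than 3 were called, the 3 with the smallest p, for the highest and lowest response, the isoform pairs and *HAP4*. Of each other list up to 3 called genes are named by size, with *AAC3*. Of the assembly factors, *COX18*, *SDH5*, *SDH6* and *SDH7* are named as well. *QCR8*, *SDH1*, *RIP1*, *COX7*, *ATP1*, *ATP20* and *NDI1* are described further as members. Alternatives were other filters on missing values, arrays brought to 1 spread, array weights, heat time, a replicate block, the strains compared alone and each array left out. Promoter and protein sequences were not analysed here.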

Additional observations from a re-analysis of the deposited data

Results flagged for a closer look

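The NaCl response differed between *cdc14-3* and *snf1*, by limma's test of the difference itself, for 5 of the 39 genes. That is 12.8% of the genes, beside 18.9% of all features in either direction and 8.74% higher in *cdc14-3*. The 5 genes were *SDH2* (1.27), *SDH3* (1.20), *SDH4* (1.11), *RIP1* (0.893) and *CYC7* (0.743), all higher in *cdc14-3*. Among the genes set beside them, *SDH6* (1.15), *STF2* (1.75) and *AAC1* (1.40) were higher in *cdc14-3*. Lower in *cdc14-3* were *ROX1* (-1.40), *MOT3* (-0.928), *COX18* (-0.979), *COX23* (-1.53), *SCO1* (-1.46), *PET117* (-1.24), *COQ8* (-0.734), *COQ10* (-0.646) and *AAC3* (-2.94). Both *cdc14-3* arrays were held at 35 °C for 2 h, and 1 of the 3 *snf1* arrays for 90 min.

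*SDH2* and *RIP1* had every *cdc14-3* array above 0 and every *snf1* array below 0, and 2 differences that limma did not call were split the same way. *SDH2* was below 0 on all 3 *cdc14-3 snf1* arrays and above 0 on both *cdc14-3* arrays, with a difference of -0.745 that limma did not call (adjusted p 0.259). *COX8* was above 0 on both *cdc14-3* arrays and below 0 on all 3 *snf1* arrays, with a difference of 0.49 that limma did not call (adjusted p 0.293). How many of all features were split around 0 was not worked out, so the splits do not set these genes apart. Arrays did not overlap for 52.2% of all features in *cdc14-3* against *snf1* and for 35.8% in *cdc14-3 snf1* against *cdc14-3*. No group had 4 or more arrays, so single arrays were not tested as outliers.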

How the results depend on the processing

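With array weights, limma called 2 of the 39 genes in *cdc14-3 snf1* against *cdc14-3*, 3 in *cdc14-3 snf1* against *snf1*, 8 in *cdc14-3* against *snf1* and 20 in the response of *cdc14-3*. Of all 6135 features, the same weights called 272, 1657, 2548 and 3536 in that order. With the 2 h arrays only, the counts were 3 in *cdc14-3 snf1* against *snf1* and 8 in *cdc14-3* against *snf1*. With a replicate block, 3 genes were called in *cdc14-3* against *snf1*, of 887 features, and the mean response of *cdc14-3* over the 39 genes was 0.10. That mean stands for an average of replicates 1 to 3, although *cdc14-3* has no replicate 1. The 2 *cdc14-3* arrays themselves averaged 0.24. Deviations of same-numbered arrays from their strain means correlated between -0.21 and 0.26 across 6096 genes. With 2 arrays, the deviations of *cdc14-3* mirror each other, so these values cannot settle whether the replicate numbers pair the arrays. Leaving out 1 array at a time gave 0 to 7 genes in *cdc14-3* against *snf1* and 2 to 14 in its response. In both comparisons of *cdc14-3 snf1* with another strain it gave 0 throughout. Over the 39 genes alone the same-numbered arrays of *cdc14-3 snf1* and *cdc14-3* correlated at 0.69 for replicate 2 and 0.49 for replicate 3. Those of *cdc14-3 snf1* and *snf1* gave 0.11, 0.09 and 0.16, and those of *cdc14-3* and *snf1* 0.17 and -0.11. Replicate 1 of *cdc14-3 snf1*, which shares no number with *cdc14-3*, gave -0.39 with its replicate 2 and 0.39 with its replicate 3.

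Counts over all features moved more. In *cdc14-3 snf1* against *cdc14-3* they were 3, with 272 under array weights, 51 with arrays at 1 spread, 44 on the 2 h arrays, 25 with the strains compared alone, 13 with heat time as a covariate, 2 with the block and 0 with no filter. In *cdc14-3 snf1* against *snf1* they were 0, with 1657 under array weights and 1382 on the 2 h arrays, 110 with heat time as a covariate, 10 with the block and 731 without *snf1* replicate 1. In *cdc14-3* against *snf1* they were 1161, with 2548 under array weights, 2278 on the 2 h arrays and 0 to 1911 with 1 array left out. In the response of *cdc14-3* they were 2472, with 919 without replicate 2 and 1199 without replicate 3. Of 512 values of 32 named gene results under the alternatives, 461 kept direction and stayed called or stayed uncalled. Another 28 lost the call, 23 gained it and 0 changed direction. A strain's mean response does not move when an array of another strain is left out, so some of the directions could not change. The causes were not tested. With 2 or 3 arrays a strain, a missed threshold does not show equal responses.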
